A study of Mus musculus with 18 samples.

Results

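The comparison described here is the knockdown of Cpsf3 against a scrambled shRNA in mouse embryonic fibroblasts (MEFs) at day 12 of reprogramming. Its members were chosen by their labels and are 6 of the 18 libraries of the series: 2 of shCPSF3#1, 2 of shCPSF3#2, and 2 of the scrambled control shSCR. The 2 libraries of non-infected cells at day 0 (NI) gave the level from which each gene started. All of these MEFs were primary cells of the genotype Collagen-OKSM, M2rtta+, in which doxycycline turns on OCT4, KLF4, SOX2, and MYC (OSKM) through the reverse transactivator. At day 0 the shRNA cells received the lentivirus together with LIF and doxycycline; at day 2 they were sorted for the GFP of the vector and plated on irradiated feeder MEFs, and at day 12 they were harvested with trypsin. NI cells were neither infected, sorted, nor grown on feeders, so that in every comparison with NI these differences cannot be told apart from the 12 days of OSKM. The share of feeder RNA in the day 12 libraries was not measured. Nothing in the labels says that libraries of the same group came from separate cultures, and the p values measure the spread between these libraries.

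CPSF3 is the endonuclease of the cleavage and polyadenylation complex, which cuts the nascent transcript downstream of the poly(A) signal so that the poly(A) tail can be added, and it also cuts the precursors of replication-dependent histone mRNAs. In reprogramming, MEFs first lose their mesenchymal program (matrix, contractile, and adhesion genes), gain epithelial genes, divide faster, and shift their metabolism towards glycolysis, before a minority of cells switches on the pluripotency network. Alternative splicing also changes along the way.

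Both shRNAs are directed at coding exons of Cpsf3 (ENSMUSG00000054309, chromosome 12 of mm10, 21285391 to 21315056, plus strand). The target of shCPSF3#1 lies in exon 10 of the 18 exons of the annotated transcript (chr12:21302460-21302480) and that of shCPSF3#2 in exon 14 (chr12:21308936-21308956). Of 6 annotated protein-coding transcripts of Cpsf3, 2 hold the first target and 1 the second. The 21 nucleotides of each target are printed in capitals within 15 nucleotides of transcript on either side, because they define the 2 perturbations that are compared.
shCPSF3#1: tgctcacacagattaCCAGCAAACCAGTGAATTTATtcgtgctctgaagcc
shCPSF3#2: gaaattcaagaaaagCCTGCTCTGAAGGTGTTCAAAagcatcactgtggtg

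Expression of Cpsf3, in CPM relative to a scaled library size (scaled CPM), was 84.7 and 82.2 in NI, 86.7 and 118 in shSCR, 38.6 and 50.0 in shCPSF3#1, and 42.4 and 77.1 in shCPSF3#2 cells. The 4 knockdown libraries lay below both shSCR libraries and below both NI libraries, with replicate 2 of shCPSF3#2 nearest to the control. Averaged over both shRNAs, the log2 fold change against shSCR was −0.997 (SE 0.24, adjusted p = 0.0207). All expression p values are from limma and adjusted by Benjamini-Hochberg over 9435 genes. The fold change was −1.18 for shCPSF3#1 (adjusted p = 0.0159) and −0.81 for shCPSF3#2 (adjusted p = 0.129), and the call was lost without replicate 2 of shSCR (adjusted p = 0.169), without replicate 1 of shCPSF3#1 (0.0516), and with the NI, shSCR, and shCPSF3 libraries only (0.0502) or the shSCR and shCPSF3 libraries only (0.103). Of 25 measured genes of cleavage and polyadenylation, Cpsf3 included, 3 fell and none rose, a share near the 9.35% of all genes that fell: Cpsf3, the scaffold Sympk (log2 fold change −0.33, adjusted p = 0.0393), and the poly(A) polymerase Papolg (−0.41, adjusted p = 0.0454). The median log2 fold change of the 25 was −0.26, against 0.03 over all genes. In a fit with the replicate number as a block, 2704 of all 9435 genes fell and 3059 rose. With the replicate number as a block, 13 of the 25 fell and none rose, and without replicate 2 of shSCR none of the 3 passed (adjusted p up to 0.314).

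The depth was even, between 99125788 and 108390722 reads on the listed genes in the 8 libraries when the smallest step between values is taken as 1 read. Libraries with the same replicate number deviated together from their group means at day 12 (Pearson r across 9435 genes from 0.674 to 0.798 between shSCR and the shCPSF3 groups). Unless the block is named, all counts, p values, and classes are from the main fit, which ignored this pairing. Counts from a further fit, with the replicate number as a block, are given where they differed from the main fit by over 1.5 times. The fold change is on the log2(scaled CPM + 1) scale, which makes the changes of weakly expressed genes too small, and in bulk RNA fewer cells of a type and less RNA per cell cannot be told apart.

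Knockdown of Cpsf3 changed the expression of 2458 of 9435 genes against shSCR at an adjusted p under 0.05 (26.1%), 1576 higher (16.7%) and 882 lower (9.35%). With the replicate block it was 5763 genes, 3059 higher and 2704 lower. In the lists described below, counts with the block have these numbers as their background. The shares of all genes printed there are of the fit without the block. With the libraries rescaled by median ratios, which shifted the median of all genes from 0.03 to −0.003, a similar total of 2419 divided into 1292 higher and 1127 lower, so the size of the excess of rises depended on the scaling. The count depended most on replicate 2 of shSCR, without which it was 591, and was 1505 without replicate 1 of shCPSF3#2. When several groups were left out, so that only the shSCR and shCPSF3 libraries were fitted, the count was lower still, at 344. In 2317 of the 2458 genes (94.26%) the 4 shCPSF3 libraries all lay on the same side of both shSCR libraries, which was so for 37.87% of all genes. The 2458 genes were chosen by a test of these same libraries, so their separation is a description and no separate support.

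The shRNAs differed in the number of genes that passed. shCPSF3#1 changed 3322 genes (35.2%), 1960 higher and 1362 lower, and shCPSF3#2 changed 501 (5.31%), 395 higher and 106 lower. Fitted with the block, shCPSF3#1 changed 6251 (3310 and 2941) and shCPSF3#2 3286 (1895 and 1391). The count of shCPSF3#1 was 1064 without replicate 2 of shSCR, 1674 and 1637 without its own replicates 1 and 2, and 560 with the shSCR and shCPSF3 libraries only. That of shCPSF3#2 was 0 without its own replicate 1 by the limma test (1209 at an unadjusted p under 0.05), 248 without its replicate 2, 54 and 77 without replicates 1 and 2 of shSCR, 184 without either NI library, 28 with the NI, shSCR, and shCPSF3 libraries only, and 0 without NI as well (1335 at an unadjusted p under 0.05). In the direct comparison of the 2 shRNAs, which tests their difference, 2 genes passed (0.0212%), with 1094 genes at an unadjusted p under 0.05: Podxl, a sialomucin of the cell surface, with a log2 difference of 1.60, and Slc38a4, an amino acid transporter, with 1.37, both higher in shCPSF3#2 (adjusted p = 0.0235 each). With the replicate block 2890 genes passed that comparison. In the limma fit of the NI, shSCR, and shCPSF3 libraries only, none passed (856 at an unadjusted p under 0.05), nor did any in 7 of the 8 fits with 1 library left out (299 to 2727), and 1 passed with median-ratio scaling. In shCPSF3#2, replicate 2 lay nearer to shSCR than replicate 1 did in Cpsf3 itself and in several of the genes described next.

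**Figure D1:**
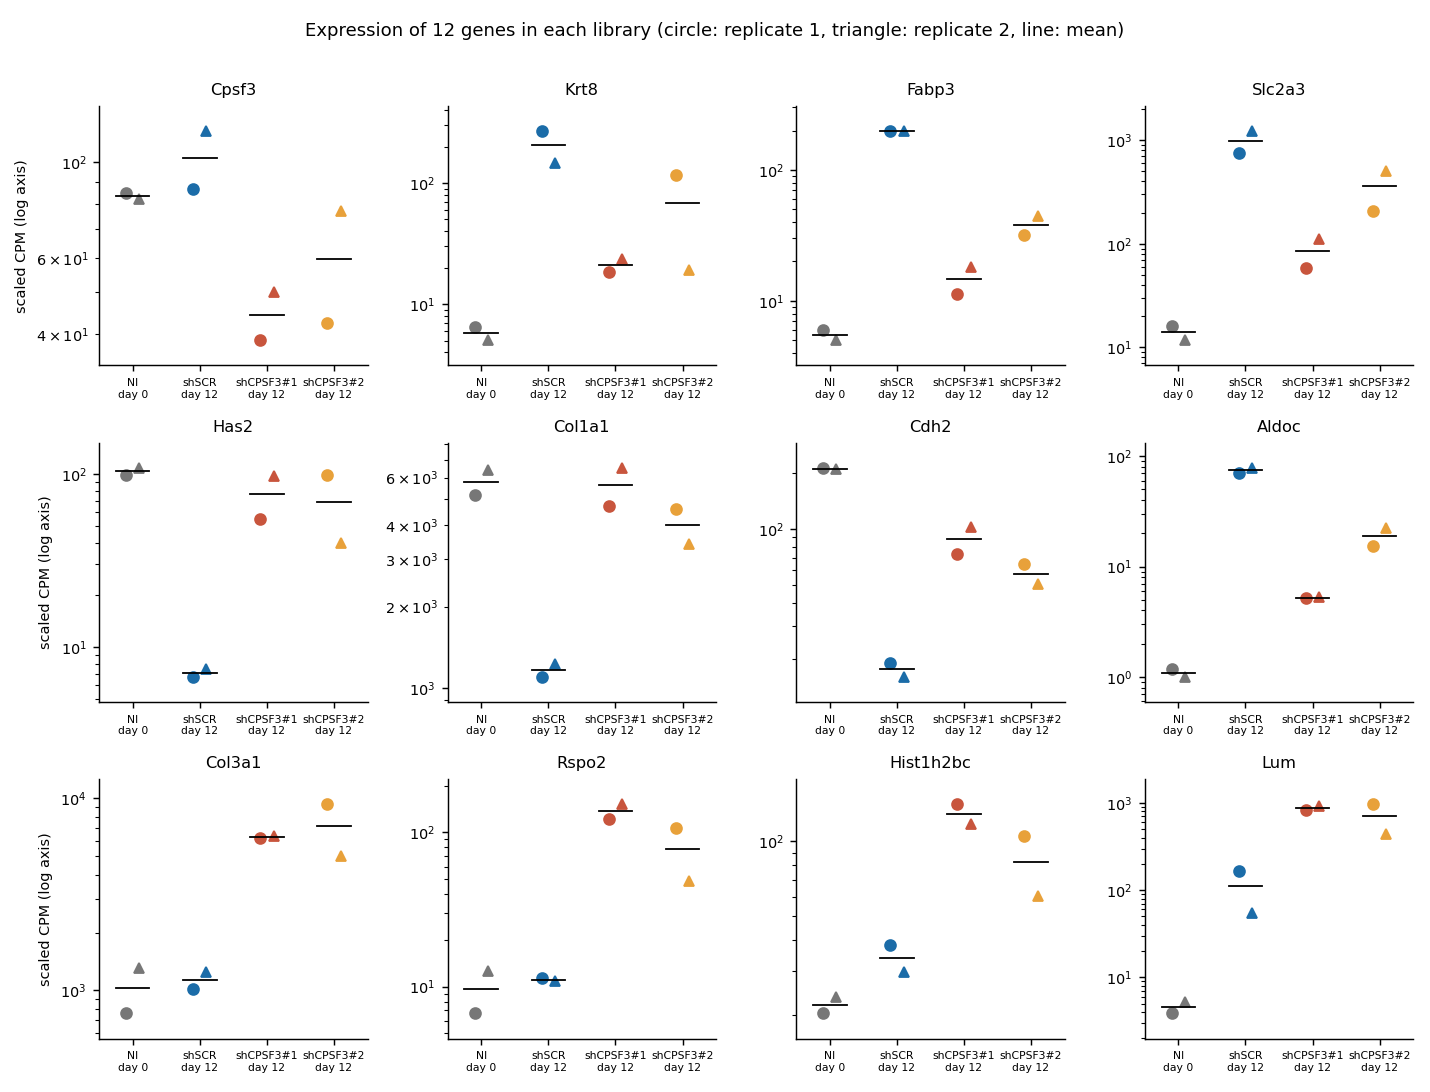
Expression of 12 genes in each of the 8 libraries, in scaled CPM on a log axis, with circles for replicate 1, triangles for replicate 2, and a line at the mean of each group. In Has2, Col1a1, and Cdh2 the shSCR libraries are lowest and the shCPSF3 libraries lie near or on the way to the NI level; in Krt8, Fabp3, Slc2a3, and Aldoc the shSCR libraries are highest; in Col3a1 and Rspo2 NI and shSCR are alike and the shCPSF3 libraries stand above both.

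The question was where each changed gene stood relative to day 0. A gene that differed between shSCR and NI (4197 of 9435, 44.5%, and 6434 with the replicate block) was called blocked when the shCPSF3 cells kept under 0.25 of that difference in either direction, partial when they kept 0.25 to 1 of it, past day 0 when they lay at least 0.25 of it beyond the NI level on the other side, and enhanced when they went further than shSCR. A gene without that difference, by the test and with a log2 difference under 0.322, was called new when shCPSF3 differed from NI. In all, 4306 genes differed between shCPSF3 and NI (45.6%), and 6657 with the block. The same shSCR and NI libraries enter both differences, so the classes describe positions and are no separate test.

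Of the 2458 genes changed by knockdown, 468 were blocked (321 higher and 147 lower than in shSCR), 772 partial (401 and 371), 164 past day 0 (127 and 37), 172 enhanced (152 and 20), and 373 new (273 and 100), and 509 could not be placed (302 and 207). Blocked and partial genes, in which knockdown cells were nearer to the day 0 level than shSCR cells were, numbered 1240 of the 2458. With the replicate block the classes held 839, 1785, 636, 842, 1196, and 465 genes, in the same order. All 468 blocked, 772 partial, 164 past day 0, and 172 enhanced genes kept their class in it, and 349 of the 373 new genes. The block changes the p values and not the fold changes, so that kept classes were nearly fixed in advance and are no separate support. With median-ratio scaling the higher and lower genes were 264 and 189 in the blocked class, 338 and 443 in the partial, 94 and 64 past day 0, 115 and 32 in the enhanced, and 212 and 149 in the new, so that in the partial class the balance of rises and falls turned. Blocked genes were 126 without replicate 2 of shSCR and 260 and 219 without replicates 1 and 2 of NI, and blocked and partial genes together 310, 826, and 772. Partial genes alone were 184 without replicate 2 of shSCR, 481 without its replicate 1, and 502 without replicate 1 of shCPSF3#2. Genes past day 0 were 65 without replicate 2 of shSCR, 53 and 45 without replicates 1 and 2 of NI, and 255 without replicate 2 of shCPSF3#2. Enhanced genes were 88 and 36 without replicates 1 and 2 of shSCR, 76 and 97 without those of NI, and 95 without replicate 1 of shCPSF3#2. New genes were 236 and 85 without replicates 1 and 2 of shSCR, 149 and 166 without those of NI, and 201 and 583 without those of shCPSF3#2.

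**Figure D2:**
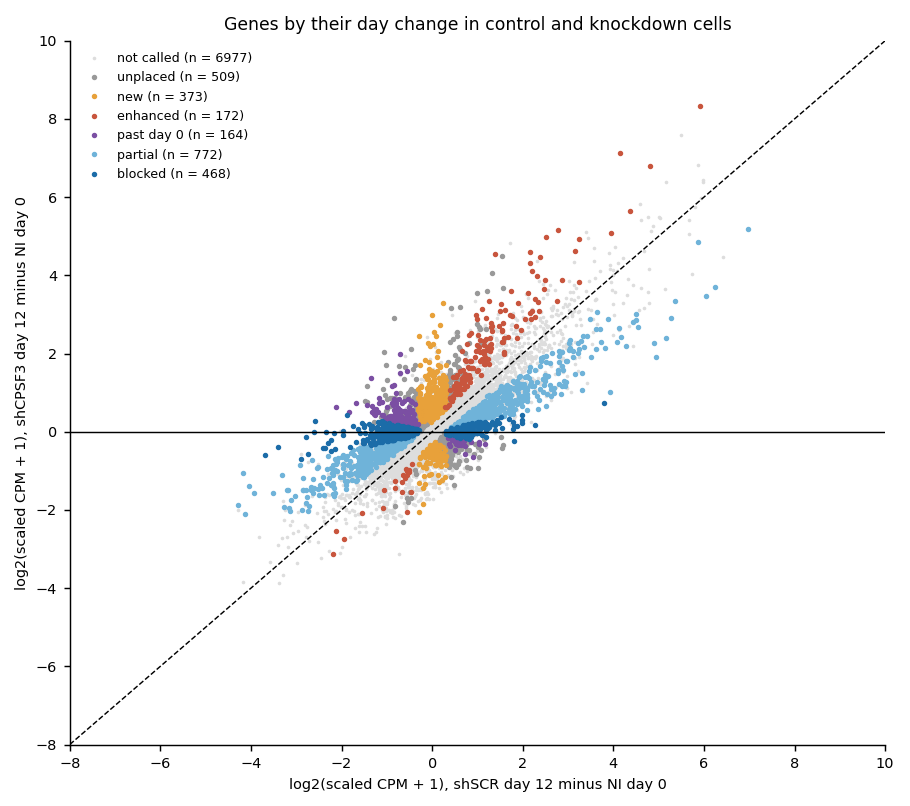
Each point is one of 9435 genes, with its log2 change from NI day 0 to shSCR day 12 on the x axis and from NI day 0 to shCPSF3 day 12 on the y axis, coloured by class. Points on the dashed line changed alike in both, points on the horizontal line are at the NI level in shCPSF3 cells; blocked genes (468) lie along the horizontal line, partial genes (772) between it and the dashed line, and new genes (373) along the vertical at 0.

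The overexpression experiment of the same series offered a reprogramming course that shares no library with these: MEFs with an empty retroviral vector (Empty) at day 12 against their own NI cells at day 0. Of 9041 genes in both tables, 2032 rose (22.5%) and 2156 fell (23.8%) there. Among the genes higher in shCPSF3 than in shSCR, 1504 were in both tables, and of these 789 fell in the Empty course (52.5%) and 67 rose. Among the 823 lower in shCPSF3, 446 rose (54.2%) and 15 fell. Blocked and partial genes were chosen as changed between NI and shSCR, so their background is the genes that fell there, of which 1416 of 2050 fell in the Empty course (69.1%), and those that rose, of which 1144 of 1871 rose (61.1%). Beside these, 254 of 315 higher blocked genes fell (80.6%) and 100 of 146 lower ones rose (68.5%), and in the partial class it was 357 of 395 (90.4%) and 252 of 315 (80%). Genes past day 0 and enhanced genes, chosen in the same way, lay below that background. Past day 0, 66 of 121 higher genes fell (54.55%) and 17 of 37 lower ones rose (45.95%). Of the enhanced genes 42 of 123 higher ones rose (34.15%) and 8 of 20 lower ones fell (40%). The differences from the background were not tested.

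**Figure D3:**
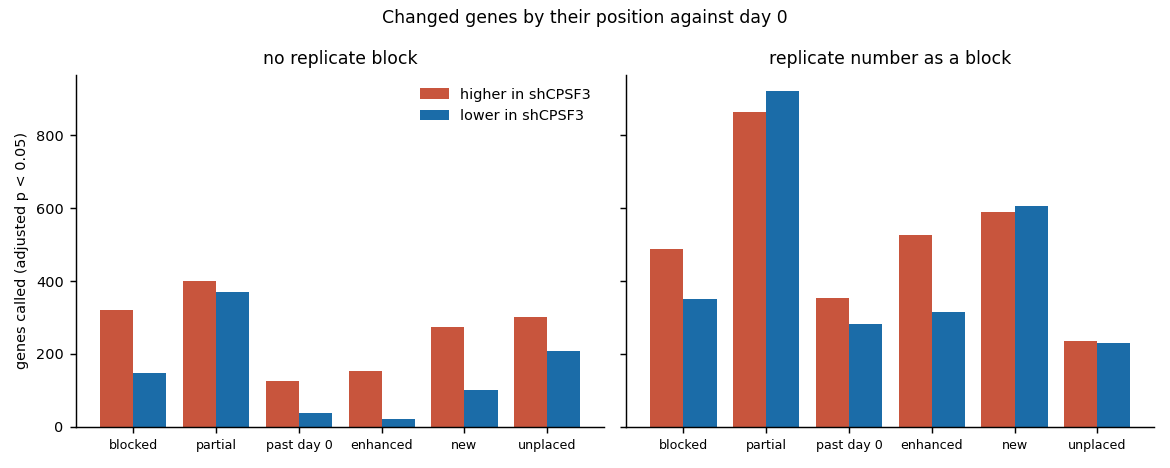
Number of changed genes in each position class, higher (red) and lower (blue) in shCPSF3 than in shSCR, without and with the replicate number as a block. Rises outnumber falls in the blocked (321 and 147), enhanced (152 and 20), and new classes (273 and 100), and slightly in the partial class (401 and 371), where it is 338 and 443 with median-ratio scaling; with the block the partial class holds 864 rises and 921 falls and the new class 590 and 606.

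Has2, which makes the matrix polymer hyaluronan, headed the blocked genes. Its expression was 97.8 and 108 in NI, 6.71 and 7.43 in shSCR, 55.0 and 97.3 in shCPSF3#1, and 98.5 and 39.9 in shCPSF3#2 cells. It was low in both shSCR libraries, and the shCPSF3 libraries were all above them, with 2 near the NI level and 2 under it (log2 fold change 3.09, SE 0.56, adjusted p = 0.00795). Periostin, Postn, a matricellular protein of fibroblasts, was expressed at 652 and 588 in NI, 62.1 and 167 in shSCR, 507 and 1717 in shCPSF3#1, and 434 and 825 in shCPSF3#2 cells, and every shCPSF3 library was above both shSCR libraries. Its log2 fold change was 2.86 (SE 0.54, adjusted p = 0.00908). Lrrc17 encodes a secreted leucine-rich repeat protein. Its values were 29.5 and 57.1 in NI, 1.07 and 6.58 in shSCR, 10.2 and 67.4 in shCPSF3#1, and 27.3 and 47.2 in shCPSF3#2 cells, and replicate 1 of shCPSF3#1, at 10.2, stood close to the higher shSCR library. The log2 fold change of Lrrc17 was 3.01 (SE 0.77, adjusted p = 0.0258). In the other direction, Egln3, a prolyl hydroxylase of hypoxia-inducible factors, was expressed at 14.9 and 8.94 in NI, 258 and 117 in shSCR, 34.7 and 5.33 in shCPSF3#1, and 27.1 and 29.5 in shCPSF3#2 cells. The log2 change was −3.06 (SE 0.65, adjusted p = 0.0136). Both shSCR libraries stood above all others, and replicate 2 of shCPSF3#1 was below both NI libraries. Without replicate 1 of shSCR, 3 of these 4 genes lost their call, with adjusted p up to 0.132, and without its replicate 2 also 3, with adjusted p up to 0.0565.

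Among the partial genes, Fabp3, a fatty acid binding protein, was expressed at 6.02 and 5.0 in NI, 198 and 197 in shSCR, 11.3 and 18.1 in shCPSF3#1, and 31.8 and 44.6 in shCPSF3#2 cells. Both shSCR libraries were alike and stood above every other library, and the knockdown libraries lay between NI and shSCR (log2 fold change −3.03, SE 0.39, adjusted p = 0.00270). Aldoc, the brain-type aldolase of glycolysis, behaved alike with 1.19 and 1.0 in NI, 69.9 and 78.7 in shSCR, 5.17 and 5.26 in shCPSF3#1, and 15.2 and 22.2 in shCPSF3#2 cells. This gave a log2 change of −2.77 (SE 0.19, adjusted p = 0.000508). Krt18, a keratin of simple epithelia, had 14.0 and 10.9 in NI, 271 and 152 in shSCR, 13.1 and 18.9 in shCPSF3#1, and 88.5 and 20.1 in shCPSF3#2 cells, with replicate 1 of shCPSF3#2 nearest to shSCR. On the log2 scale it changed by −2.92 (SE 0.63, adjusted p = 0.0143). Unc5c, a netrin receptor, showed the reverse, 51.1 and 47.0 in NI, 1.05 and 2.69 in shSCR, 10.2 and 57.1 in shCPSF3#1, and 17.6 and 26.9 in shCPSF3#2 cells: it was nearly gone from the shSCR cells, all knockdown libraries were higher, and replicate 2 of shCPSF3#1 was above NI. Against shSCR the log2 change was 3.13 (SE 0.62, adjusted p = 0.0106). Without replicate 1 of shSCR, 2 of these 4 genes lost their call (adjusted p up to 0.0755), and without its replicate 2 also 2 (up to 0.0611).

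Other large falls were of genes that were low at day 0. Slc2a3, a glucose transporter, was expressed at 16.1 and 11.7 in NI, 761 and 1228 in shSCR, 58.0 and 111 in shCPSF3#1, and 209 and 507 in shCPSF3#2 cells. The change in log2 was −2.57 (SE 0.57, adjusted p = 0.0150). The septin Sept1 fell from 139 and 222 in shSCR cells to between 10.7 and 104 in shCPSF3 cells (adjusted p = 0.0479), and the mitochondrial protein Chchd10 from 87.5 and 140.5 to between 7.43 and 75.9 (adjusted p = 0.0459). Txnip, an inhibitor of glucose uptake and thioredoxin, fell from 517 and 454 to between 78.6 and 145 (adjusted p = 0.00571). In the limma fit of the shSCR and shCPSF3 libraries only, 8 of the 12 largest falls lost their call (adjusted p up to 0.0954). Of the 12 largest falls, 8 lost their call without replicate 2 of shSCR (adjusted p up to 0.253), 6 without its replicate 1 (up to 0.137), 4 without replicate 1 of shCPSF3#1 (up to 0.111), and 3 without its replicate 2 (up to 0.0642).

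Of the 164 genes past day 0, 127 were rises, and the 4 with the largest changes were among them. Robo2, a receptor of the guidance protein Slit, was expressed at 6.69 and 6.28 in NI, 4.07 and 3.07 in shSCR, 55.3 and 38.0 in shCPSF3#1, and 17.1 and 18.7 in shCPSF3#2 cells; it fell in shSCR cells (log2 −0.72 against NI) and stood above NI in all 4 knockdown libraries (log2 fold change against shSCR 2.71, SE 0.17, adjusted p = 0.000464). Mmp16, a membrane-bound matrix metalloproteinase, had 14.5 and 15.7 in NI, 1.95 and 3.57 in shSCR, 20.8 and 45.8 in shCPSF3#1, and 16.3 and 21.6 in shCPSF3#2 cells (log2 fold change 2.77, SE 0.32, adjusted p = 0.00194), and Col5a3, a collagen V chain, 106 and 96.0 in NI, 40.7 and 23.2 in shSCR, 285 and 232 in shCPSF3#1, and 95.5 and 128 in shCPSF3#2 cells. In log2 it changed by 2.42 (SE 0.24, adjusted p = 0.00154). The Col5a3 level was above NI with shCPSF3#1 and astride it with shCPSF3#2. Kctd12, an auxiliary subunit of GABA-B receptors, had 25.8 and 22.3 in NI, 6.57 and 11.8 in shSCR, 52.9 and 98.8 in shCPSF3#1, and 39.2 and 81.4 in shCPSF3#2 cells. The fitted log2 change was 2.72 (SE 0.41, adjusted p = 0.00462).

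The 4 largest changes of the enhanced class were of extracellular matrix proteins that were higher in shSCR than in NI and higher still with knockdown. Lumican, Lum, a proteoglycan that binds collagen fibrils, was expressed at 3.85 and 5.18 in NI, 167 and 54.2 in shSCR, 833 and 932 in shCPSF3#1, and 965 and 444 in shCPSF3#2 cells: it was nearly silent at day 0, and the lowest knockdown library was above the highest shSCR library. Its log2 fold change was 2.98 (SE 0.47, adjusted p = 0.00520). Comp, a cartilage matrix protein, had 1.11 and 1.501 in NI, 4.79 and 5.32 in shSCR, 26.1 and 68.0 in shCPSF3#1, and 72.8 and 59.4 in shCPSF3#2 cells (log2 fold change 3.15, SE 0.36, adjusted p = 0.00194), Abi3bp, another extracellular matrix protein, 11.5 and 19.8 in NI, 87.2 and 93.6 in shSCR, 615 and 472 in shCPSF3#1, and 654 and 335 in shCPSF3#2 cells (log2 fold change 2.46, SE 0.39, adjusted p = 0.00539), and Sned1, also a matrix protein, a fold change of 2.44 (SE 0.50, adjusted p = 0.0120). Without replicate 1 of shSCR, 1 of the 4 lost its call (adjusted p = 0.0691).

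New changes were those in which shSCR cells were at the day 0 level. Col3a1, the chain of fibrillar collagen III, was expressed at 758 and 1309 in NI, 1021 and 1251 in shSCR, 6235 and 6356 in shCPSF3#1, and 9296 and 5024 in shCPSF3#2 cells, higher in each knockdown library than in any NI or shSCR library. The log2 change was 2.54 (SE 0.41, adjusted p = 0.00563). Rspo2, a secreted enhancer of Wnt signalling, had 6.70 and 12.6 in NI, 11.4 and 10.8 in shSCR, 121 and 152 in shCPSF3#1, and 107 and 48.5 in shCPSF3#2 cells (log2 fold change 3.05, SE 0.39, adjusted p = 0.00271), and its relative Rspo3 had 5.64 and 11.5 in NI, 7.995 and 5.24 in shSCR, 65.6 and 64.3 in shCPSF3#1, and 49.6 and 26.9 in shCPSF3#2 cells. This gave a log2 change of 2.73 (SE 0.43, adjusted p = 0.00533). In both, replicate 2 of shCPSF3#2 was the lowest of the knockdown libraries. The matricellular Ccn3 had 20.6 and 25.4 in NI, 10.6 and 48.1 in shSCR, 142 and 301 in shCPSF3#1, and 120.4 and 245 in shCPSF3#2 cells (log2 fold change 2.99, SE 0.57, adjusted p = 0.00942). Its shSCR libraries lay on either side of NI, and the fold change was 1.95 without replicate 1 of shSCR and 4.03 without replicate 2. Without replicate 2 of shSCR, 1 of these 4 lost its call (adjusted p = 0.0522). Among genes the classes could not place, Col14a1, a collagen associated with fibrils, had the largest rise of all, with 5.92 and 6.96 in NI, 1.67 and 5.33 in shSCR, 38.4 and 97.6 in shCPSF3#1, and 41.8 and 58.7 in shCPSF3#2 cells. On the log2 scale it changed by 3.77 (SE 0.42, adjusted p = 0.00183). It was joined by lubricin, Prg4 (2.95, adjusted p = 0.0238), Igsf10 (2.75, adjusted p = 0.00565), and pleiotrophin, Ptn (3.12, adjusted p = 0.0332). The shSCR libraries of Ptn were far apart, at 31.2 and 263, and the lowest knockdown library was at 324. In the limma fit of the shSCR and shCPSF3 libraries only, 7 of the 12 largest rises lost their call (adjusted p up to 0.123). Of the 12 largest rises 5 lost their call without replicate 1 of shSCR, with adjusted p up to 0.157, and 3 without its replicate 2, up to 0.0565.

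Matrix genes were described by a list of 40, of which 39 were measured. Knockdown raised 21 and lowered none (53.85%, against 16.7% of all genes that rose), with a median log2 fold change of 1.28 against 0.03 over all genes. The list had fallen by a median of 1.08 from NI to shSCR, and in shCPSF3 cells its median against NI was 0.03. Of the 21 genes, 9 were blocked, 3 partial, 2 past day 0, 1 enhanced, 2 new, and 4 not placed. Col1a1, the main chain of fibrillar collagen I, was expressed at 5158 and 6395 in NI, 1099 and 1228 in shSCR, 4697 and 6528 in shCPSF3#1, and 4603 and 3399.7 in shCPSF3#2 cells (log2 fold change 2.01, SE 0.27, adjusted p = 0.00322): both shSCR libraries stood far below NI, and the knockdown libraries lay on both sides of NI, replicate 2 of shCPSF3#2 being the lowest. Col5a2, of collagen V, had 2375 and 2562 in NI, 516 and 412 in shSCR, 2177 and 2333 in shCPSF3#1, and 1838 and 1210.1 in shCPSF3#2 cells (log2 fold change 1.99, SE 0.23, adjusted p = 0.00194), and its partner Col5a1 a fold change of 1.68 (SE 0.23, adjusted p = 0.00321). Timp2, an inhibitor of matrix metalloproteinases, had 681 and 827 in NI, 551 and 467 in shSCR, 2613 and 3257 in shCPSF3#1, and 1762 and 1554 in shCPSF3#2 cells and exceeded NI in every knockdown library. Against shSCR the log2 change was 2.11 (SE 0.15, adjusted p = 0.000508). With the block 30 of the 39 rose and 1 fell, and without replicate 2 of shSCR 8 rose. The shSCR libraries differed from each other in the summed level of the list, 47415 and 26989 scaled CPM, and replicate 2 of shCPSF3#2, at 46442, was within their range, while the other knockdown libraries had 82838 to 93187.

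**Figure D4:**
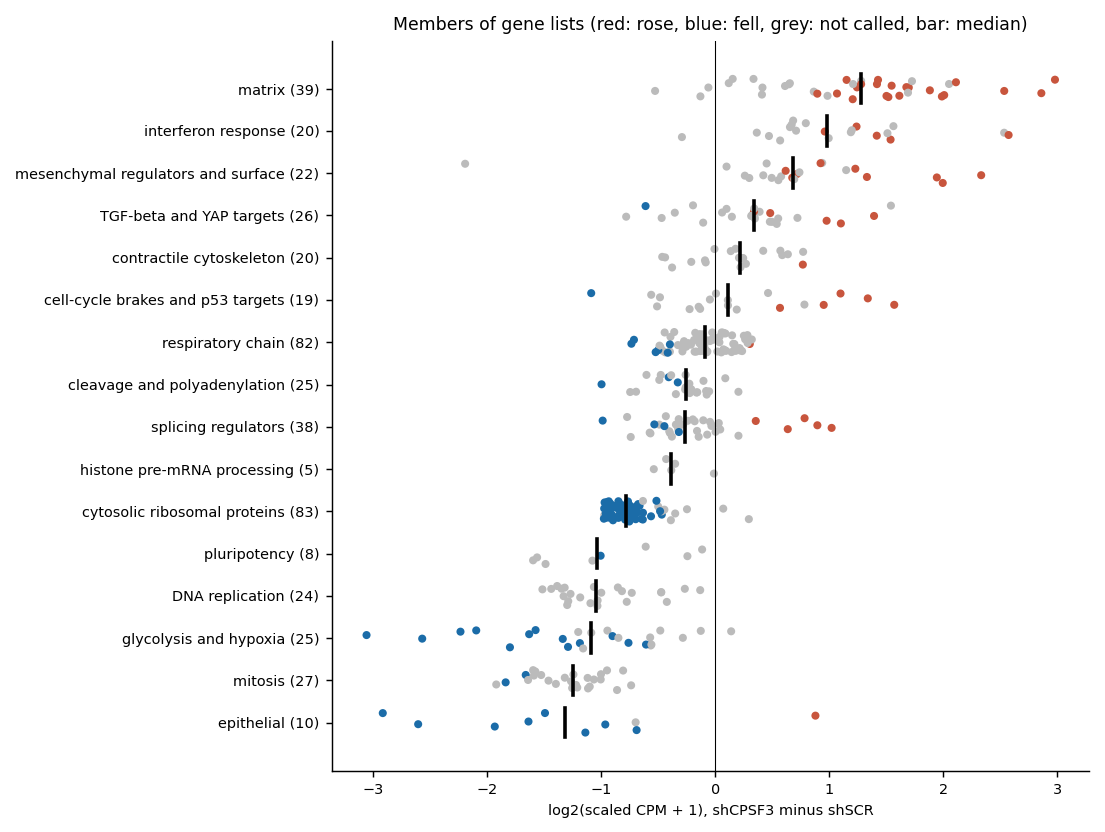
Log2 fold change of shCPSF3 against shSCR for each measured member of 16 gene lists with 5 or more members, one point per gene, red where it rose, blue where it fell, and grey where it did not pass (adjusted p of 0.05), with a bar at the median. The matrix list lies mostly to the right of 0 (median 1.28), the epithelial, mitosis, glycolysis, and DNA replication lists to the left (medians −1.32, −1.25, −1.09, and −1.05), and the ribosomal proteins have a median of −0.79.

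The mesenchymal regulators and surface proteins followed, with 9 of 22 that rose, against 16.7% of all genes, and none that fell, and a median of 0.68. The cadherin Cdh11 was expressed at 547 and 547 in NI, 131 and 177 in shSCR, 704 and 993 in shCPSF3#1, and 715 and 713 in shCPSF3#2 cells, above NI in every knockdown library. The change in log2 was 2.33 (SE 0.17, adjusted p = 0.000508). N-cadherin, Cdh2, had 213 and 208 in NI, 19.1 and 16.1 in shSCR, 73.0 and 102.6 in shCPSF3#1, and 64.7 and 50.3 in shCPSF3#2 cells and was retained in part. In log2 it changed by 1.94 (SE 0.26, adjusted p = 0.00305). The transcription factors of the mesenchymal state Snai2 (1.33, adjusted p = 0.0138) and Twist1 (0.92, adjusted p = 0.00628) also rose, Twist1 without having fallen in shSCR cells (log2 −0.32 against NI). With the block 16 of the 22 rose and 1 fell, and 3 rose without replicate 2 of shSCR, 4 without replicate 1 of shCPSF3#2, and 2 with the shSCR and shCPSF3 libraries only. The contractile cytoskeleton was different: it had fallen by a median of 1.96 in shSCR cells, and in shCPSF3 cells it stood at −1.75 against NI. Of its 20 measured genes 1 rose with knockdown, the actin crosslinker filamin A, Flna, from 970.4 and 684 in shSCR to between 1005 and 1684 (adjusted p = 0.0397), still under its NI level of 4221 and 4313. Its call was lost without replicate 2 of shSCR (adjusted p = 0.288), without either NI or either shCPSF3#1 library, without replicate 1 of shCPSF3#2 (0.0668 to 0.0940), and with median-ratio scaling (0.0564). With the block 5 rose and 1 fell. The median of the list was 0.22.

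Epithelial genes went the other way. Of 32 listed genes 10 were measured, 8 of which fell (80.0%, against 9.35% of all genes) and 1 rose, with a median of −1.32. They had risen by a median of 1.88 from NI to shSCR and stood at 0.74 above NI in shCPSF3 cells. Krt8, the partner of Krt18 in the filaments of simple epithelia, was expressed at 6.48 and 5.04 in NI, 268 and 146 in shSCR, 18.6 and 23.5 in shCPSF3#1, and 117 and 19.1 in shCPSF3#2 cells. Replicate 1 of shCPSF3#2 was near the lower shSCR library and the other 3 knockdown libraries far below it (log2 fold change −2.61, SE 0.73, adjusted p = 0.0345). Krt19 had 42.0 and 34.0 in NI, 88.5 and 67.1 in shSCR, 14.5 and 14.5 in shCPSF3#1, and 41.3 and 16.2 in shCPSF3#2 cells, and 3 of the knockdown libraries were below NI. The fitted log2 change was −1.93 (SE 0.45, adjusted p = 0.0187). Spint2, an inhibitor of epithelial serine proteases, had a log2 fold change of −1.64 (SE 0.38, adjusted p = 0.0175), and Jup, the plakoglobin of junctions and desmosomes, one of −0.69 (SE 0.17, adjusted p = 0.0211). The gene that rose was Perp, a desmosomal p53 target, named after its value was seen (0.88, adjusted p = 0.0236). When replicate 2 of shSCR was left out, 1 epithelial gene rose and none fell, with adjusted p between 0.0611 and 0.165 for Krt18, Krt19, Spint2, and Jup, and 2 fell without its replicate 1. Without replicate 1 of shCPSF3#1, 4 fell.

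The pluripotency network was little represented in the table, with 8 of 34 genes, and the core genes Pou5f1 and Nanog were not among them. The transcription factor Tbx3 fell, from 97.2 and 96.7 in shSCR to between 35.9 and 66.2 in the shCPSF3 libraries, with NI at 20.9 and 23.4 (log2 fold change −1.01, SE 0.23, adjusted p = 0.0182), and was the only one of the 8 to pass, a share near the 9.35% of all genes that fell; it did not without replicate 1 (adjusted p = 0.0692) or 2 (0.109) of shSCR. All 8 had a negative fold change, with a median of −1.04 and a range from −1.60 to −0.11, and with the block 5 fell. Without replicate 2 of shCPSF3#2, 3 fell. The summed level of the 8 was 712 and 1169 in shSCR and 357 to 491 in 3 knockdown libraries, but 1179 in replicate 2 of shCPSF3#2, above both shSCR libraries.

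Glycolysis and hypoxia genes had risen in shSCR cells by a median of 1.38, and stood at 0.28 above NI in shCPSF3 cells. Of 25 measured genes 13 fell with knockdown and none rose (52.0%, against 9.35% of all genes), with a median of −1.09; 5 were blocked, 6 partial, 1 past day 0, and 1 new. With the block 20 fell. Without replicate 2 of shSCR none passed, with a median of −1.05, and 8 fell without its replicate 1. The enzymes and transporters named here were Slc2a1, the glucose transporter of most cells, with 108 and 81.1 in NI, 587 and 513 in shSCR, 199 and 94.1 in shCPSF3#1, and 218 and 277 in shCPSF3#2 cells (log2 fold change −1.58, SE 0.28, adjusted p = 0.00772), the lactate exporter Slc16a3, with 34.7 and 24.2 in NI, 154 and 132 in shSCR, 23.3 and 14.2 in shCPSF3#1, and 34.9 and 95.3 in shCPSF3#2 cells (log2 fold change −2.10, SE 0.42, adjusted p = 0.0111), and the phosphofructokinase Pfkp, with 55.0 and 48.9 in NI, 394 and 695 in shSCR, 56.6 and 77.7 in shCPSF3#1, and 110.5 and 303 in shCPSF3#2 cells. Its log2 fold change was −2.23 (SE 0.54, adjusted p = 0.0211). In Slc16a3 and Pfkp, replicate 2 of shCPSF3#2 stood between the other knockdown libraries and shSCR. Gpi1, the isomerase of glucose phosphate, changed by −1.19 (SE 0.22, adjusted p = 0.00910) and stood at −0.08 against NI. The muscle-type phosphofructokinase Pfkm, with 33.2 and 36.7 in NI, 114 and 120.3 in shSCR, 75.3 and 78.9 in shCPSF3#1, and 72.4 and 79.2 in shCPSF3#2 cells, had narrow groups and a log2 fold change of −0.61 (SE 0.10, adjusted p = 0.00571).

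Since many of these genes are known targets of hypoxia-inducible factors, whose core motif is ACGTG, the 250 bases before their start were searched for it on both strands (a palindromic CACGTG counts on both). Of 12 of the 13 genes that fell and had a promoter in the RefSeq table (GRCm38.p6), 7 held it (58.3%), and of 23 of the 25 measured members 14 (60.9%), against 26.5% of 7516 listed genes with a promoter. For genes with several promoters any of them counted. The match says only that these letters are present. The sequences upstream of Egln3 (chr12:54203875-54204124, minus strand) and Slc16a3 (chr11:120948817-120949066, plus strand) are shown because these blocked genes had the largest fall of the list and 2 matches; capitals mark the motif.
Egln3: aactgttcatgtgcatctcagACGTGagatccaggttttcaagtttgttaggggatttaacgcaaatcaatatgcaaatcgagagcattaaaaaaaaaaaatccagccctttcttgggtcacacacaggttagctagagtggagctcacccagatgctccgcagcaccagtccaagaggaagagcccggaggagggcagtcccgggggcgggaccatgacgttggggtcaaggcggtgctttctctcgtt
Slc16a3: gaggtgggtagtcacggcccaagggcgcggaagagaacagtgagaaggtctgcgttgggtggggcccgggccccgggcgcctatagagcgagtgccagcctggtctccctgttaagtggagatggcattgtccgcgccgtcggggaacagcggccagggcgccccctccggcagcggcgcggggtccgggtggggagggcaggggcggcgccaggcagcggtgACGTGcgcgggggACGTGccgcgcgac

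Of 82 genes of the respiratory chain and ATP synthase, 6 fell and 1 rose, below the 9.35% and 16.7% of all genes, with a median of −0.09. The gene that rose was Ndufa1, of complex I, named after its value was seen (0.30, adjusted p = 0.0405), and none rose with median-ratio scaling or with any of the 8 libraries left out. Ndufa6, of complex I, had 35.6 and 32.9 in NI, 70.2 and 76.5 in shSCR, 43.8 and 41.5 in shCPSF3#1, and 43.0 and 49.4 in shCPSF3#2 cells. The log2 change was −0.71 (SE 0.12, adjusted p = 0.00583). Cox7a2l (−0.50, adjusted p = 0.0155), Ndufv3 (−0.40, adjusted p = 0.0219), and Atp5g2 (−0.74, adjusted p = 0.0251) also fell. With the replicate block 2704 of all 9435 genes fell and 3059 rose, and the share of this list that fell was near that of all genes. With the block 22 of the 82 fell and 8 rose, and without replicate 2 of shSCR none passed. Without replicates 1 and 2 of shCPSF3#1, 3 and 2 fell, and 2 without replicate 1 of shCPSF3#2.

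Genes of the cytosolic ribosomal proteins fell in large number. Of 83 measured genes 73 fell and none rose (87.95%, against 9.35% of all genes), with a median of −0.79; in shSCR cells 22 had risen from NI, with a median of 0.42, and in shCPSF3 cells the median against NI was −0.34. Rps16, of the small subunit, had 541 and 520.2 in NI, 683 and 824 in shSCR, 324 and 319 in shCPSF3#1, and 388 and 524 in shCPSF3#2 cells (log2 fold change −0.98, SE 0.15, adjusted p = 0.00475): all 4 knockdown libraries were below both shSCR libraries, and 3 of them below both NI libraries. Rpl17, of the large subunit, had 666 and 628 in NI, 974 and 1183 in shSCR, 519 and 471 in shCPSF3#1, and 586 and 718 in shCPSF3#2 cells (log2 fold change −0.92, SE 0.14, adjusted p = 0.00441), and Rps28 and Rpl26 changed by −0.92 and −0.90 (adjusted p = 0.00577 and 0.00586). Members of this family have many processed copies in the genome, so that their counts are less certain than those of other genes. The shSCR libraries differed in this list, with sums of 63845 and 81427 scaled CPM, against 36587 to 56930 in the knockdown libraries, and without replicate 2 of shSCR 2 of the 83 fell, at a median of −0.61. Of the 83, 80 fell and 1 rose with the block. In the limma fit of the shSCR and shCPSF3 libraries only, in which 344 of all genes passed and 2942 had an unadjusted p under 0.05, 7 matrix genes rose, and none of the epithelial, glycolysis, ribosomal, pluripotency, mitosis, respiratory chain, or cleavage and polyadenylation genes fell, nor did any interferon, TGF-β and YAP, or blood marker gene rise.

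Genes of mitosis and DNA replication were lower in knockdown cells by their fold changes, but few passed without the block. Of 27 mitosis genes 2 fell (9.35% of all genes fell), with a median of −1.25 and every member below 0 (range −1.92 to −0.74): Anln, a scaffold of the cytokinetic ring, with 339 and 400.1 in NI, 194 and 287 in shSCR, 33.5 and 64.5 in shCPSF3#1, and 89.1 and 154 in shCPSF3#2 cells (log2 fold change −1.66, SE 0.36, adjusted p = 0.0137), and cyclin B2, Ccnb2, with 43.6 and 74.4 in NI, 59.9 and 105 in shSCR, 8.39 and 20.2 in shCPSF3#1, and 21 and 57.4 in shCPSF3#2 cells. This gave a log2 change of −1.84 (SE 0.56, adjusted p = 0.0450). In both, replicate 2 was higher than replicate 1 in shSCR and with each shRNA. With the replicate block all 27 fell. Without replicate 2 of shCPSF3#2, whose median against shSCR replicate 2 was −0.38, 14 fell, and without replicate 2 of shSCR none. By the limma test none of 24 DNA replication genes passed, with 4 lower at an unadjusted p under 0.05 (median −1.05; 22 fell with the block), the lowest p being those of Rfc4 (−1.29, adjusted p = 0.0683, 0.000145 with the block) and the DNA ligase Lig1 (−1.52, adjusted p = 0.0855, 0.000139 with the block).

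Of 19 cell-cycle brakes, cyclins D, and p53 targets 5 rose and 1 fell, against 16.7% and 9.35% of all genes, with a median of 0.11 near that of all genes (0.03). Cyclin D2, Ccnd2, was expressed at 602 and 646 in NI, 363 and 527 in shSCR, 1273 and 1447 in shCPSF3#1, and 941 and 869 in shCPSF3#2 cells (log2 fold change 1.34, SE 0.16, adjusted p = 0.00203), above all NI and shSCR libraries in every knockdown library. The CDK inhibitor Cdkn2b had 21.5 and 28.4 in NI, 44.4 and 55.3 in shSCR, 134 and 118 in shCPSF3#1, and 86.6 and 97.1 in shCPSF3#2 cells, an enhanced rise (log2 fold change 1.1, SE 0.18, adjusted p = 0.00602), whereas the CDK inhibitor Cdkn1b, with 46.1 and 52.8 in NI, 129 and 98.6 in shSCR, 41.2 and 47.1 in shCPSF3#1, and 57.5 and 68.1 in shCPSF3#2 cells, did not rise as in shSCR. On the log2 scale it changed by −1.09 (SE 0.14, adjusted p = 0.00247). Ccng1, a p53 target, rose by 0.95 (adjusted p = 0.0128). With the replicate block 3059 of all 9435 genes rose and 2704 fell, and the share of this list that rose was near that of all genes. With the block 7 rose and 3 fell, and 3 rose without replicate 2 of shSCR and 2 with the shSCR and shCPSF3 libraries only.

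Because CPSF3 also cuts histone precursors, the histone genes were examined. The libraries were made from poly(A) RNA, which holds mature replication-dependent histone mRNAs only where they carry a tail, and 2 such genes were listed. Hist1h2bc was expressed at 20.3 and 23.7 in NI, 38.2 and 29.9 in shSCR, 141 and 117 in shCPSF3#1, and 106 and 60.2 in shCPSF3#2 cells and rose (log2 fold change 1.56, SE 0.27, adjusted p = 0.00686); each knockdown library was above both shSCR libraries, and the call was lost without replicate 2 of shSCR (adjusted p = 0.0656). The other, Hist1h1c, named after its value was seen, had a fold change of 0.97 that did not pass (adjusted p = 0.108), and both rose with the block. Of 5 genes of histone processing none passed in the limma test, with 2 lower at an unadjusted p under 0.05 and a median of −0.39; the lowest p were those of the exonuclease Eri1 (−0.43, adjusted p = 0.0677, 0.00874 with the block) and Npat (−0.35, 0.0954, 0.00599 with the block), and 4 of the 5 fell with the block.

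Of 20 measured interferon-response genes 5 rose and none fell, against 16.7% and 9.35% of all genes, with a median of 0.98, and 14 rose with the block. Ifit3, an antiviral effector, had 4.70 and 11.7 in NI, 6.96 and 3.79 in shSCR, 125 and 43.3 in shCPSF3#1, and 16.8 and 17.5 in shCPSF3#2 cells. Against shSCR the log2 change was 2.57 (SE 0.52, adjusted p = 0.0118). The highest library by far was replicate 1 of shCPSF3#1, which also led in Ifit2 (42.7). Tap1, a transporter for antigen presentation, rose by 0.96 (adjusted p = 0.0166), and Ifit2 by 1.24 (0.0202). The median was 1.52 with shCPSF3#1 and 0.40 with shCPSF3#2, a difference that was not tested for the list. The summed level of the 20 genes was 4797 scaled CPM in that library and 1096 to 2158 in the other knockdown libraries, against 1478 and 712 in shSCR, which overlap. None rose without replicate 2 of shSCR, 2 without replicate 1 of shCPSF3#2, and 3 without replicate 1 of shCPSF3#1.

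Of 26 ligands, receptors, and targets of TGF-β and YAP signalling 5 rose and 1 fell, with a median of 0.34. The share that rose was near the 16.7% of all genes. With the replicate block 3059 of all 9435 genes rose and 2704 fell. Tgfb2, a ligand, had 47.2 and 52.2 in NI, 29.1 and 16.5 in shSCR, 88.7 and 64.1 in shCPSF3#1, and 57.9 and 37.7 in shCPSF3#2 cells (log2 fold change 1.39, SE 0.33, adjusted p = 0.0190), and its receptor Tgfbr2 105 and 116 in NI, 220.3 and 175 in shSCR, 409 and 403 in shCPSF3#1, and 454 and 303 in shCPSF3#2 cells. The change in log2 was 0.98 (SE 0.22, adjusted p = 0.0172). Ltbp1, which holds the ligand in the matrix, rose by 1.1 (adjusted p = 0.00630) and the inhibitor Smad7 changed by −0.61 (adjusted p = 0.0189), from 64.4 and 48.8 to between 33.0 and 43.2. With the block 12 rose and 1 fell, and without replicate 2 of shSCR none rose and 1 fell. Without replicate 1 of shCPSF3#2, 2 rose. The YAP targets Ccn1, Ccn2, and Ankrd1, named after their values were seen, had fold changes of −0.35, −0.47, and −0.78 that did not pass.

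Of 38 measured regulators of splicing 5 rose and 4 fell (median −0.26), shares near those of all genes (16.7% and 9.35%). With the block 5 rose and 20 fell, beside 3059 and 2704 of all 9435 genes. In the limma fit of the shSCR and shCPSF3 libraries only, none of the 38 passed. Mbnl1, which drives splicing of differentiated cells, was expressed at 309.7 and 295 in NI, 131 and 91.7 in shSCR, 271 and 266 in shCPSF3#1, and 219 and 157 in shCPSF3#2 cells and was retained in part. In log2 it changed by 1.02 (SE 0.17, adjusted p = 0.00628). Rbfox2 had 229.7 and 245 in NI, 177 and 182 in shSCR, 305 and 317 in shCPSF3#1, and 258 and 248 in shCPSF3#2 cells, above NI in every knockdown library. The fitted log2 change was 0.64 (SE 0.09, adjusted p = 0.00340). The RNA binding protein Zcchc24 rose by 0.90 (adjusted p = 0.00865) and Tra2a, an activator of exon inclusion, changed by −0.53 (adjusted p = 0.0166), to 0.03 against NI. Without replicate 2 of shSCR, 3 of these 4 lost their call (adjusted p up to 0.1195).

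Markers of other cells were examined because MEF cultures are mixed. Of 12 blood cell markers 3 were listed, the macrophage genes Lyz2, Csf1r, and Cd68, and all 3 rose (16.7% of all genes rose and 9.35% fell); the 9 others, Ptprc and Adgre1 among them, were not in the table. Lyz2 was expressed at 1.27 and 2.99 in NI, 248.7 and 132 in shSCR, 1676 and 1207 in shCPSF3#1, and 1187 and 374 in shCPSF3#2 cells (log2 fold change 2.42, SE 0.55, adjusted p = 0.0168), and Csf1r at 1.86 and 2.23 in NI, 21.3 and 9.19 in shSCR, 78.4 and 83.8 in shCPSF3#1, and 39.0 and 19.4 in shCPSF3#2 cells. Its log2 fold change was 1.68 (SE 0.40, adjusted p = 0.0203). The summed level of the 3 was 9.57 and 10.6 scaled CPM in NI, 171 and 300.4 in shSCR, and 429 to 1814 in shCPSF3 cells, with every knockdown library above both shSCR libraries. The summed levels of the interferon and matrix lists were highest in 3 of the 4 knockdown libraries, but in replicate 2 of shCPSF3#2, the knockdown library lowest in blood cell markers too, they were below replicate 1 of shSCR; the part of these cells in those results was not tested. NI and shSCR cells, which also differ in infection, sorting, and feeders, differed in both sums. The blood marker sum was higher in shSCR, and the summed matrix level was lower there, at 47415 and 26989 against 68176 and 66157 in NI. The bearing of these differences on those with knockdown was not tested. None of the 3 passed without replicate 2 of shSCR, and 1 without replicate 1 of shCPSF3#2. Of 9 nerve and glia markers 3 were listed, of which Tubb3, a tubulin, rose (log2 fold change 1.75, SE 0.22, adjusted p = 0.00247). The 2 others had negative fold changes that did not pass, and the list had a median of −0.12 and a lowest value of −0.52. The 1 endothelial marker listed, Tek, had 0.33 (adjusted p = 0.573), and no marker of skeletal muscle was listed. Of 4 Y-linked genes, Eif2s3y and Uty changed by −0.54 and −0.52 (adjusted p = 0.0129 and 0.0231), and the sum of the 4 was 419 and 422 in shSCR, 286 to 363 in shCPSF3, and 278 and 285 in NI cells. Eif2s3y and Uty did not pass in the limma fit of the shSCR and shCPSF3 libraries only (adjusted p 0.0874 to 0.0964). The reprogrammed MEFs were male by the methods of the study, so the 4 genes do not tell feeder RNA from theirs.

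Alternative splicing was read as the percent spliced in (PSI), which gives how often an exon was included, an intron kept, or a splice site used among the transcripts that span it. Of 374159 events covered by at least 10 reads in every library, 2291 differed between shCPSF3 and shSCR in a limma test of inclusion over exclusion reads (0.612%), with inclusion higher in 908 (0.243%) and lower in 1383 (0.37%). Over all events that passed, the excess of lower inclusion turned into one of higher inclusion when either shSCR library was left out. Of the 2291 events, 459 had a |∆PSI| of at least 10 (0.123%). They were 207 cassette exons (67 higher, 140 lower), 137 retained introns (39 and 98), 70 alternative 5′ sites (33 and 37), and 45 alternative 3′ sites (23 and 22). Where PSI is near 0 or 100 the read ratio also follows the number of reads, so the events described next, apart from those of Cpsf3, passed the PSI limit too. With the replicate block 7902 events passed the read test, 888 of them with the PSI limit. shCPSF3#1 gave 1379 events and shCPSF3#2 73, and no event differed between the 2 shRNAs by the limma test, with 26792 at an unadjusted p under 0.05. The fit took its spread from all 12 libraries of the knockdown experiment. With the NI, shSCR, and shCPSF3 libraries only, 5 events passed. Without replicates 1 and 2, in this order, 643 and 643 passed for NI, 261 and 106 for shCPSF3#1, 210 and 525 for shCPSF3#2, and 1158 and 1975 for shSCR.

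Against day 0, 222 of the 459 events were blocked (71 with higher and 151 with lower inclusion than shSCR), 91 partial (26 and 65), 49 past day 0 (22 and 27), none enhanced, and 24 new (11 and 13), and 73 could not be placed. The limits of the gene classes were used, with shSCR and NI at least 10 apart for a change between them and under 5 apart for a new event. In the fit with the block 393 events were blocked, 203 partial, 84 past day 0, 8 enhanced, and 56 new, and 144 could not be placed. Partial, past day 0, new, and unplaced events were each fewer with any 1 library left out. With 1 library left out, blocked events ranged from 27 (without replicate 2 of shCPSF3#1) to 202 (without replicate 2 of shSCR). In the Empty course of the overexpression experiment, 77 of 219 covered blocked events changed in the direction of shSCR by at least 10 (35.2%) and none in the opposite direction, and 57 of 90 partial events (63.3%). The count for events past day 0 was 12 of 48, with 1 in the opposite direction. Over all 5140 covered events with shSCR and NI at least 10 apart the share was 31.7%, so the blocked events were near that background and the partial events, whose change was larger in shSCR (a median of 26.7 against 17.7 in the blocked), above it.

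A blocked exon with a large difference was in Dnm1l, the dynamin-related GTPase of mitochondrial fission. The exon of 33 nucleotides (chromosome 16, 16318445 to 16318477, minus strand, exon 15 of the 19 of its transcript) lies in the coding sequence and keeps the frame. Another exon of 33 nucleotides, in Cacna1c, the pore of the L-type calcium channel (chromosome 6, 118630399 to 118630431, minus strand, exon 31 of 47), is also coding and in frame. Both are printed with the exon in capitals and 15 nucleotides of the neighbouring exons in lower case, followed by the longer coding exons of Ano1 and Enpp2 described further on, to show coding exons whose use changed.
Dnm1l: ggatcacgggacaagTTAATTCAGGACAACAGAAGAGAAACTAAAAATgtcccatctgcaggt
Cacna1c: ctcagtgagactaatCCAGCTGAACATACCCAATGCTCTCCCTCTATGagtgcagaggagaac
Ano1: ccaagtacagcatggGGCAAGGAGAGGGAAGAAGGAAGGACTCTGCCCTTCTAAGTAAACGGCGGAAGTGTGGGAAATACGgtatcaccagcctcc
Enpp2: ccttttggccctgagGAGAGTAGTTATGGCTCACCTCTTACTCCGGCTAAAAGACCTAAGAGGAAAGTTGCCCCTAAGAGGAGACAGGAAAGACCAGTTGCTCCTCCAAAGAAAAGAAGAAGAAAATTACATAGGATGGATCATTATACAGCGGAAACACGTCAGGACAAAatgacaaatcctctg

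PSI of the Dnm1l exon was 20.2 and 19.0 in NI, 74.7 and 77.4 in shSCR, 16.1 and 15.7 in shCPSF3#1, and 23.7 and 41.5 in shCPSF3#2 cells. Inclusion rose in both shSCR libraries; 3 knockdown libraries were at or within 5 of the NI level, and replicate 2 of shCPSF3#2 was between NI and shSCR (∆PSI −51.8, adjusted p of the reads = 0.0196). Immt, the organizer of mitochondrial cristae, had a cassette exon of 90 nucleotides (chromosome 6, 71853179 to 71853268) with PSI of 35.5 and 35.7 in NI, 78.8 and 80.3 in shSCR, 29.0 and 32.7 in shCPSF3#1, and 34.9 and 48.6 in shCPSF3#2 cells (∆PSI −43.3, adjusted p = 0.0260), again with replicate 2 of shCPSF3#2 the nearest to shSCR. An alternative 3′ site of Rps24, a ribosomal protein, had 97.9 and 97.0 in NI, 49.5 and 52.9 in shSCR, 94.9 and 96.1 in shCPSF3#1, and 88.5 and 85.6 in shCPSF3#2 cells (∆PSI 40.1, adjusted p = 0.00520). In these 3 events the shCPSF3 and shSCR libraries did not overlap. A 5′ site of Rpl5, of the large subunit, changed by 39.8 (adjusted p = 0.0172), and the retained intron of Cdan1 (chromosome 2, 120730503 to 120730701), which encodes codanin, by −40.4 (adjusted p = 0.0157), from 64.3 and 69.0 in shSCR to between 18.5 and 36.5. The largest blocked difference of all was the intron of Tmc4, a channel-like membrane protein, with 100 and 100 in NI, 23.0 and 30.0 in shSCR, 100 and 93.9 in shCPSF3#1, and 67.7 and 75.7 in shCPSF3#2 cells on 23 to 91 reads per library (∆PSI 57.9, adjusted p = 0.0246).

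Other blocked events were an exon of the chemokine Ccl25 (∆PSI −40.5), a 3′ site of the centromere protein Cenpc1 (−37.6), and a 5′ site of the zinc transporter Slc39a11 (40.5), with adjusted p between 0.0384 and 0.0484. All 4 of the largest blocked events (Tmc4, Dnm1l, Immt, and Ccl25) lost their call without either shCPSF3#1 library (adjusted p up to 0.114) and without replicate 1 of shSCR (up to 0.113), and 3 of them without replicate 2 of shSCR (up to 0.130) or replicate 1 of shCPSF3#2 (up to 0.123).

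**Figure D5:**
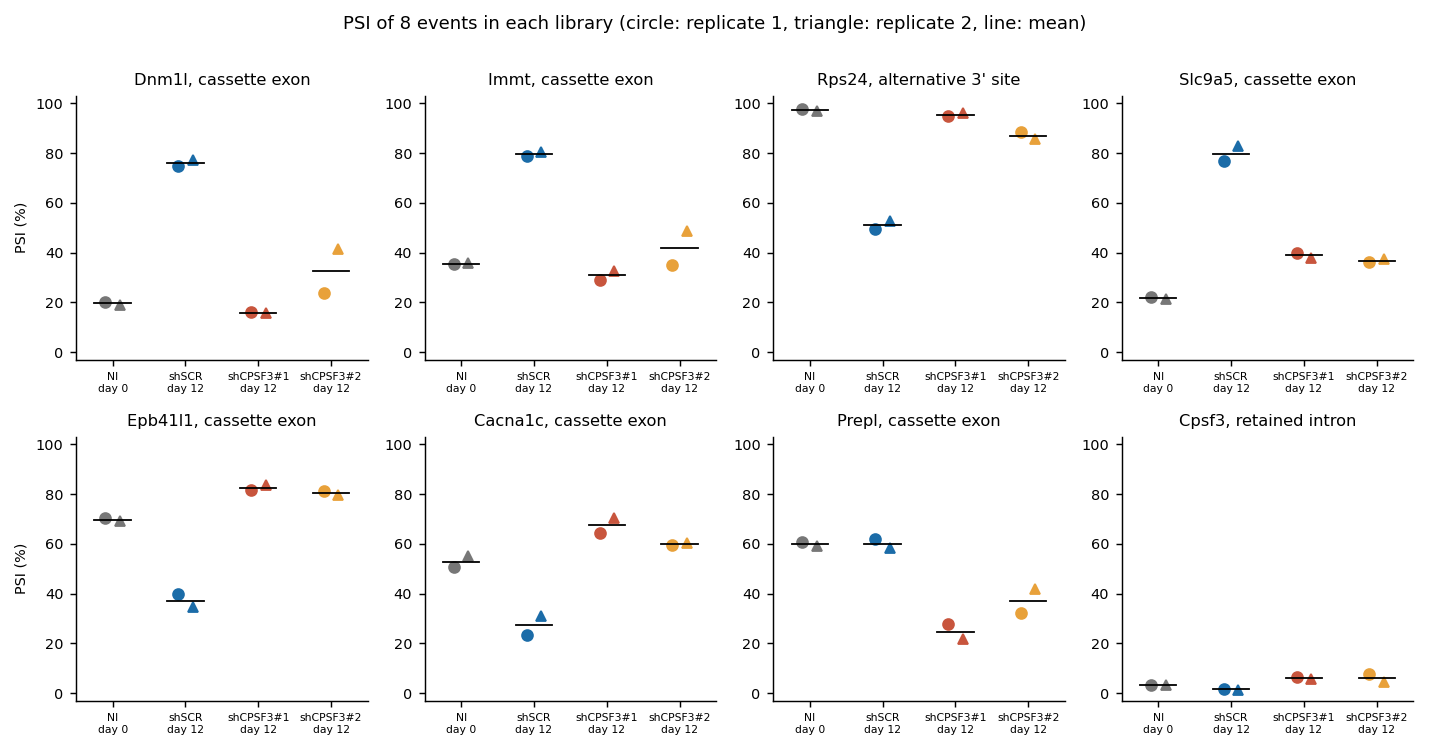
PSI of 8 events in each of the 8 libraries, with circles for replicate 1, triangles for replicate 2, and a line at the mean of each group. The Dnm1l, Immt, and Rps24 events are near the NI level in the shCPSF3 libraries, the Slc9a5 exon lies between NI and shSCR, the Epb41l1 and Cacna1c exons lie beyond NI, the Prepl exon is at the NI level in shSCR and lower in shCPSF3, and the Cpsf3 intron stays under 8.

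Among partial events, the exon of the sodium and proton exchanger Slc9a5 (chromosome 8, 105357581 to 105357651) had PSI of 22.1 and 21.3 in NI, 76.6 and 82.7 in shSCR, 39.9 and 38.0 in shCPSF3#1, and 36.0 and 37.3 in shCPSF3#2 cells, with all 4 knockdown libraries within 4 of each other (∆PSI −41.8, adjusted p = 0.0148). Itga6, the laminin receptor subunit α6, has an exon of 130 nucleotides (chromosome 2, 71853534 to 71853663) with 76.4 and 84.6 in NI, 23.4 and 18.8 in shSCR, 79.5 and 69.5 in shCPSF3#1, and 39.4 and 36.7 in shCPSF3#2 cells: shCPSF3#1 was near NI and shCPSF3#2 closer to shSCR (∆PSI 35.1, adjusted p = 0.0418). Long introns, as annotated in the event table, were also of this class, that of the actin-binding Lima1 (6833 nucleotides, ∆PSI 39.3, adjusted p = 0.0495) and that of the splicing factor Hnrnpa2b1 (1977 nucleotides, −33.1, 0.0233). In these 4 events each library group kept its order, NI and shSCR at the ends and shCPSF3 between, but for the shCPSF3#1 libraries of Itga6, one of which lay within the NI range. Without replicate 2 of shCPSF3#1 none of the 4 passed (adjusted p 0.0631 to 0.125), nor without its replicate 1 (0.0507 to 0.111).

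The 4 largest events past day 0 kept their call with any 1 library left out. In Epb41l1, the protein 4.1 of neurons and of the membrane skeleton, the exon of 408 nucleotides (chromosome 2, 156524881 to 156525288, coding, in frame) had 70.3 and 69.0 in NI, 39.7 and 34.5 in shSCR, 81.8 and 83.5 in shCPSF3#1, and 81.4 and 79.5 in shCPSF3#2 cells (∆PSI 44.5, adjusted p = 0.00520). Every knockdown library was above both NI libraries, within 4 of each other, while both shSCR libraries were below NI. The Cacna1c exon printed above had 50.8 and 54.9 in NI, 23.4 and 31.0 in shSCR, 64.5 and 70.4 in shCPSF3#1, and 59.5 and 60.5 in shCPSF3#2 cells, on 30 reads in the shallowest library (∆PSI 36.6, adjusted p = 0.0107). In the Empty course this exon went from a mean of 55.0 to 66.8, opposite to shSCR. In Abcc5, an export pump, an exon of 75 nucleotides (chromosome 16, 20402260 to 20402334) had 22.0 and 29.9 in NI, 13.6 and 15.7 in shSCR, 47.3 and 54.4 in shCPSF3#1, and 48.1 and 55.8 in shCPSF3#2 cells (∆PSI 36.7, adjusted p = 0.0109), and a neighbouring exon of 587 nucleotides (chromosome 16, 20400448 to 20401034), which was new, 10.4 and 11.6 in NI, 6.22 and 8.10 in shSCR, 25.5 and 37.5 in shCPSF3#1, and 28.0 and 34.8 in shCPSF3#2 cells (∆PSI 24.3, adjusted p = 0.0276). The exon of F730043M19Rik, a transcript not known to code for a protein, changed by −40.6 (adjusted p = 0.00692) on as few as 27 reads. With NI, shSCR, and shCPSF3 libraries only, 1 of the 4 events past day 0 passed (Epb41l1, adjusted p = 0.0353).

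New events, with shSCR at the level of day 0, included the 100-nucleotide exon of Prepl, a serine hydrolase (chromosome 17, 85088340 to 85088439), with 60.8 and 59.3 in NI, 61.9 and 58.2 in shSCR, 27.8 and 21.6 in shCPSF3#1, and 32.1 and 41.7 in shCPSF3#2 cells (∆PSI −29.3, adjusted p = 0.0457), and the 246-nucleotide coding exon of Kank1, an adaptor of focal adhesions (chromosome 19, 25424138 to 25424383), with 85.4 and 80.7 in NI, 85.4 and 84.8 in shSCR, 68.5 and 61.1 in shCPSF3#1, and 68.0 and 69.1 in shCPSF3#2 cells (∆PSI −18.4, adjusted p = 0.0186). In both, all 4 knockdown libraries were below NI and shSCR. The 5′ site of Rcc1, the exchange factor of Ran, was used at 34.7 and 29.9 in shCPSF3#1 cells and at 5.71 and 6.95 in shCPSF3#2 cells, against 0 and 2.77 in shSCR (adjusted p = 0.0330) and 6.62 and 4.71 in NI. Both shCPSF3#1 libraries stood far above the others, although the difference between the shRNAs did not pass for any event. Events the classes could not place included the exons of the chloride channel Ano1, of 66 nucleotides (chromosome 7, 144648575 to 144648640, 54.0 and 49.3 in NI, 50.5 and 66.0 in shSCR, 88.4 and 83.8 in shCPSF3#1, and 75.8 and 76.6 in shCPSF3#2 cells, adjusted p = 0.0457), and of Enpp2, or autotaxin, which makes lysophosphatidic acid, of 156 nucleotides (chromosome 15, 54877776 to 54877931, 13.1 and 20.8 in NI, 5.19 and 12.7 in shSCR, 33.9 and 38.0 in shCPSF3#1, and 27.7 and 32.4 in shCPSF3#2 cells, adjusted p = 0.0294). In Ano1 and Enpp2 the knockdown libraries had the highest inclusion of all. An exon of the sorting nexin Snx19 rose by 21.2 (adjusted p = 0.0190) and one of Dzip1, of ciliogenesis, changed by −19.8 (adjusted p = 0.0408). Without replicate 1 of shCPSF3#2 none of the named new or unplaced events passed (adjusted p 0.0645 to 0.1198).

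Events of Cpsf3 itself had small differences in PSI. Retention of the intron before its exon 6 (chromosome 12, 21295208 to 21296646) was 3.10 and 3.12 in NI, 1.74 and 1.35 in shSCR, 6.60 and 5.63 in shCPSF3#1, and 7.49 and 4.47 in shCPSF3#2 cells (∆PSI 4.50, adjusted p = 0.0362), above both NI and both shSCR libraries in every knockdown library. Retention of the intron after it (chromosome 12, 21296737 to 21297788) was 0.23 and 0.34 in shSCR and 0.70 to 1.02 with knockdown (adjusted p = 0.0445). Neither intron passed without either NI library (adjusted p 0.0670 to 0.0740), without either shSCR library (0.0811 to 0.125), or with PSI tested in place of the read ratio (0.122 and 0.177). Inclusion of exon 6 was 99.6 and 99.62 with shCPSF3#2 and 100 in the other libraries. With almost no exclusion reads, the read ratio of this exon follows its number of reads, which was 438 to 1051 with knockdown and 1175 and 1617 in shSCR, so its test says nothing of splicing.

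The 207 cassette exons that changed by at least 10 had a median length of 105 nucleotides, against 117 over the 108996 exons tested. Their length was a multiple of 3 in 55.6%, and in 62.6% of the blocked ones, against 39.4% of all exons tested, and 5 of them had 27 nucleotides or fewer (2.42%, against 1.89%). The tested exons were not limited to those of intermediate PSI, so they are no background of alternative exons. Whether the 207 differ from other alternative exons was not tested. Of 352 genes with a called event of any type and a |∆PSI| of at least 10, 323 were in the expression table. Of these 323, 96 changed in expression (29.7%), near the 26.1% of all genes. When events were chosen by the size of ∆PSI alone, without a test, 1589 of 375244 events differed from shSCR (652 with higher and 937 with lower inclusion). Here the mean of both shRNAs had to differ from shSCR by at least 10. Each shRNA also had to differ from NI or shSCR by 10, with the libraries at least 5 apart. Of the 1567 events with a read test 401 passed it, so most of them were not called.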

How the data were processed

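RNA was measured by stranded poly(A) sequencing. The deposited expression values are per-gene signal: CPM relative to a library size scaled by the authors, who kept only genes above a low-count and a variation limit, so that the listed genes are those that vary between samples (STAR 2.7.1a and edgeR 3.16.5 are named in the submitters' notes). The deposited splicing table gives PSI in percent for each event and a text field from which the score and the inclusion and exclusion reads were taken, per the file headers; coordinates are of mm10. Raw counts were not used and no count test was run.

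Expression was tested on log2(scaled CPM + 1) with limma 3.58.1 (R 4.3.3, trended variance), with the 12 libraries of the knockdown experiment in 1 fit of 6 groups, and with 6 libraries in the overexpression fit. Events were tested on log2((inclusion + 1)/(exclusion + 1)) with robust limma and weights from the counting variance plus 0.05. All p values are two-sided and adjusted by Benjamini-Hochberg. Groups come from the sample titles; the time field of shUL1#2 and of the overexpression NI libraries differs from them and was not used. The main fit had no pairs. In the fit with the block, replicate numbers were taken as pairs, since deviations of same-numbered libraries correlated across genes (r = 0.674 for shSCR with shCPSF3#1, 0.798 with shCPSF3#2, and 0.675 between the shRNAs). NI stood outside the block.

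The members and lists were chosen with earlier results of these data known. Genes were named by rule: Cpsf3, the 12 largest rises and falls among changed genes whose 4 shCPSF3 libraries lay on 1 side of both shSCR libraries, the 4 largest of each class under the same conditions, and up to 4 changed members with the lowest p of each list (2 where none changed); events were the 4 largest of each class, the 2 largest of each type, and those of Cpsf3. Some genes named by this rule are not reported here. Sequences are from GENCODE vM21 and, for promoters, RefSeq. Alternatives were other added constants, filters, scalings, library sets, class limits, the replicate block, and leaving out each library. Methods were tested on simulated data. Scripts ran in Python 3.11.15 (pandas 2.3.3; NumPy 2.4.6), and plots were drawn in matplotlib 3.10.9.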

Additional observations from a re-analysis of the deposited data

Results flagged for a closer look

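Among 117 genes and events tested for a library apart from the rest of the 4 shCPSF3 libraries, 6 had a gap over range above the critical value for 4 samples, where chance gives about 1 in 20. Replicate 2 of shCPSF3#1 stood apart in Egln3 (0.8625, lowest), Cdh11 (0.9572, highest), Twist1 (0.9735, highest), and the Kank1 exon (0.8621, lowest). Replicate 1 of shCPSF3#2 stood apart in Krt8 (0.8756) and Krt19 (0.8991), in both as the highest.

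The shRNAs differed from each other in Podxl, by a log2 difference of 1.604 (SE 0.138), and in Slc38a4, by 1.366 (SE 0.128), both higher with shCPSF3#2 (limma, adjusted p = 0.0235). Neither passed with the NI, shSCR, and shCPSF3 libraries only, or in 7 of the 8 fits with 1 library left out.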

How the results depend on the processing

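No single value reversed. Of the values of named genes and events under the alternatives, 1299 kept their side of the threshold, 385 lost their call, and 9 gained one. With the replicate block, 5763 genes changed (3059 higher, 2704 lower), 6251 with shCPSF3#1 and 3286 with shCPSF3#2, of which 839 were blocked and 2624 blocked or partial; it ended no call of a named gene or event. With the shSCR and shCPSF3 libraries only, 344 genes changed (278 higher, 66 lower), and 57 of 84 named genes lost their call. With NI added 570 genes were lower and 825 blocked or partial. A retained-share limit of 0.1 gave 208 blocked genes. With 1 library left out, changed genes ranged from 591 to 3225 (452 to 1830 higher, 139 to 1395 lower), blocked genes from 126 to 597, and blocked or partial genes from 310 to 1403; the lowest are without replicate 2 of shSCR and the highest without replicate 2 of shCPSF3#2.

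For events, deviations of same-numbered libraries correlated weakly (r = 0.0877 for shSCR with shCPSF3#1, 0.158 with shCPSF3#2, and 0.151 between the shRNAs). With the block 7902 events changed in the reads, 888 with the PSI limit and 393 blocked; with the NI, shSCR, and shCPSF3 libraries only these were 5, 2, and 1. Unweighted PSI gave 254 and 134 (blocked), and a minimum PSI difference of 15 gave 262 and 123. With 1 library left out the reads gave 106 to 1975, the PSI limit 58 to 343, and blocked events 27 to 202, lowest without replicate 2 of shCPSF3#1. Events by size alone were 672 with a minimum of 15 and 1710 to 2755 with 1 library left out.

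The cause of these shifts was not tested. With 2 libraries a group, and the spread shared with other groups, calls depended on single libraries; where 1 library was left, it was assumed to vary like the other groups. A test on read counts was not run.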
